A study of Mus musculus with 9 samples.

Results

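The genes described here are 10 antioxidant and metal-binding genes of the mouse liver: Cat, Sod1, Sod2, Gpx1, Prdx1, Gclc, Nqo1, Hmox1, Mt1 and Mt2. They were chosen with earlier results of these data known, and then taken by gene name, as every non-control probe whose gene name in the scanner output is on that list, which gave 16 of 56605 probes and 10 of 37074 gene names. Liver RNA of male C57BL/6N mice was measured on 9 arrays, 3 per group, and the labels give the age as 12 months for all of them. The paper instead counts 12 months from the injection, and gives 12 months of high-fat diet in its results but a shorter time in its methods. AAV-V mice received an adeno-associated virus (AAV) with an empty vector and a normal diet, AAV-GP73 mice received an AAV encoding mouse GP73, a Golgi protein, and a normal diet, and AAV-V HFD mice received the empty vector and a high-fat diet (HFD). The virus is described as hepatocyte-specific, but its promoter is not named, and the vector was given into the blood. Nothing in the labels says whether an array holds 1 mouse or a pool, so p-values measure the spread between these samples. The 2 comparisons with AAV-V ask how the liver changes when GP73 is raised on a normal diet and when the diet is rich in fat, and setting AAV-GP73 beside AAV-V HFD asks where both differ.

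Liver cells make superoxide and hydrogen peroxide when they burn fat, in mitochondria and in peroxisomes. Superoxide dismutases turn superoxide into hydrogen peroxide, which catalase, glutathione peroxidases and peroxiredoxins then remove. The transcription factor NRF2 switches on many genes of glutathione synthesis and detoxification, whereas metallothioneins, small cysteine-rich proteins that bind zinc and copper, are switched on by the metal sensor MTF1, by glucocorticoids and by inflammation.

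Signals are given as scaled log2 signals, that is, the log2 of the background-corrected brightness minus the 75th percentile of the 2665 probes that were well above background on all 9 arrays, put back on a common level. The AAV-V arrays were dimmer than the others before scaling. The median brightness of those probes was 35.8 ± 2.77 on the AAV-V arrays, 113 ± 14.3 in AAV-GP73 and 105 ± 25.2 with HFD (mean ± SD, n = 3), whereas the log2 signal of the spike-in controls was 10.59, 10.45 and 10.71. Between 10.2% and 10.7% of the spots were well above background in AAV-V, against 16.0% to 18.4% in AAV-GP73 and 13.8% to 16.7% in AAV-V HFD. A probe at background therefore reads higher on an AAV-V array after scaling, as the Nqo1 values below show. The normal-diet arrays shared 1 slide and the HFD arrays a second, so diet and slide cannot be told apart. On the normal-diet slide the AAV-V arrays lay in row 1 and the AAV-GP73 arrays in row 2. GP73 and slide row therefore cannot be told apart either. The 15 hepatocyte markers were detected on every AAV-V and AAV-GP73 array, and 14 or 15 on the AAV-V HFD arrays. Golm1, which encodes GP73, has 1 probe, which no array showed well above background, so the arrays do not check which mice carried the vector. In whole liver, fewer cells of a type and less RNA per cell cannot be told apart.

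A probe was called when its fold reached 2 and its limma p, adjusted by Benjamini-Hochberg over the 6593 probes tested, was under 0.05, and a probe was tested when 1 group or more had it well above background on each array. In AAV-GP73 against AAV-V, 5 of the 8 member genes tested were called, all higher, where 51.8% of all probes tested were called and 33.9% were called higher. In AAV-V HFD against AAV-V, 5 of 8 were called, all higher, where 42% of all probes were called and 25.1% were called higher. The 5 were Cat, Sod1, Gpx1, Prdx1 and Gclc in both comparisons, which share the AAV-V arrays. No member was called between AAV-GP73 and AAV-V HFD by limma, 0 of 8, where 2.67% of all probes were called, and Cat alone had an unadjusted p under 0.05. Of the 10 genes, Cat, Sod1, Gpx1 and Prdx1 were well above background on all 9 arrays by their brightest probe, Gclc and Hmox1 only on the AAV-GP73 and AAV-V HFD arrays, Mt1 and Mt2 on 8 and 7 arrays, Sod2 on 4 and Nqo1 on none. Sod2 and Nqo1 were not tested. Gclc and Hmox1 passed the filter only through the groups in which they are brighter. The Prdx1 probe counted was its brightest over the 9 arrays but not in AAV-V. Another Prdx1 probe, brighter in AAV-V, was not called in either comparison. The 5 of 8 is therefore a description, as is the count of 4 that follows. Among the 2667 probes well above background on every array, the brightest probes of Cat, Sod1, Gpx1 and Prdx1, all 4, were called higher in both comparisons. Of all such probes 16.1% were called higher in AAV-GP73 against 11.9% in AAV-V HFD.

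**Figure D1:**
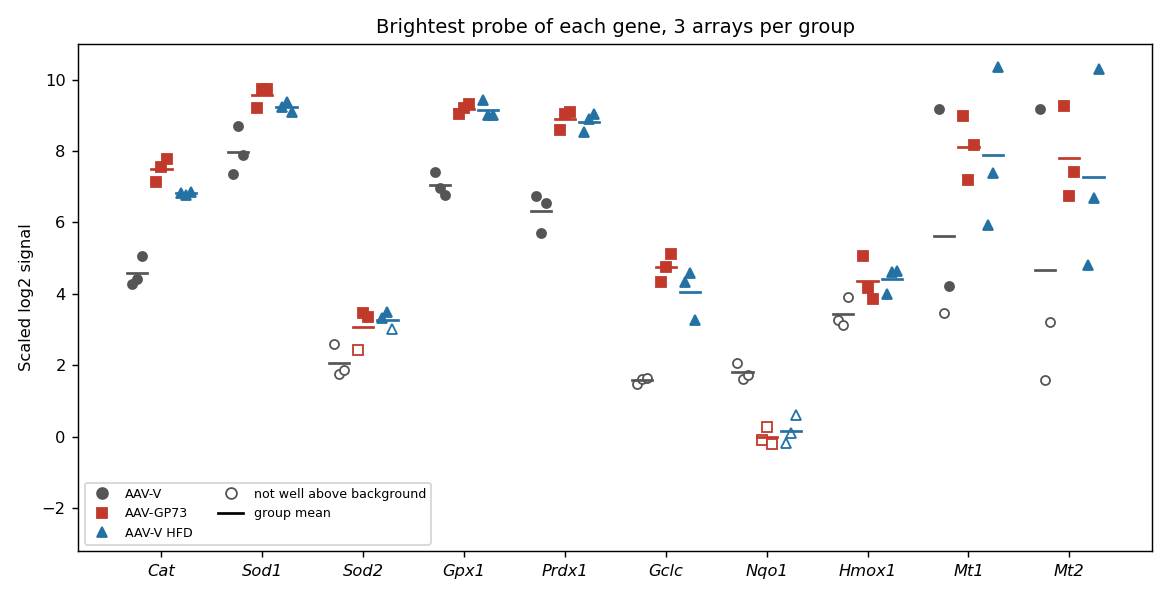
Scaled log2 signal of the brightest probe of each of the 10 genes on every array, with AAV-V as grey circles, AAV-GP73 as red squares and AAV-V HFD as blue triangles (3 arrays per group). Short lines are group means and open symbols are arrays on which the probe was not well above background. Cat, Sod1, Gpx1, Prdx1 and Gclc lie lower on all AAV-V arrays than on the other arrays, whereas Mt1 and Mt2 spread widely within each group.

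Catalase, the peroxisomal enzyme that splits hydrogen peroxide into water and oxygen, showed the clearest separation. The scaled log2 signal of Cat was 4.27, 4.43 and 5.07 on the AAV-V arrays, 7.13, 7.55 and 7.79 on the AAV-GP73 arrays, and 6.83, 6.78 and 6.84 on the AAV-V HFD arrays. All 3 groups lay apart, with AAV-V lowest and AAV-GP73 highest. Cat rose 7.47-fold in AAV-GP73 (log2 fold change 2.90 ± 0.30, SE, n = 3 per group, limma adjusted p = 5.1e-05) and 4.69-fold in AAV-V HFD (2.23 ± 0.30, adjusted p = 0.00036). The direct log2 difference between AAV-GP73 and AAV-V HFD was 0.67, with a 95% interval from 0.03 to 1.32 and a limma adjusted p of 0.285, so it did not pass the test over all probes. The Cat probe is complementary to chr2:103294660-103294719 of the mm9 build, on the minus strand.

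Sod1 encodes the cytosolic copper and zinc superoxide dismutase. Its brighter probe (chr16:90226497-90226556 of mm9, plus strand) read 7.36, 8.69 and 7.89 in AAV-V, 9.19, 9.74 and 9.74 in AAV-GP73, and 9.25, 9.36 and 9.10 in AAV-V HFD, on the scaled log2 scale. The AAV-V arrays were all lower than the other 6, with AAV-V replicate 2 the closest to them. Sod1 rose 2.98-fold in AAV-GP73 (log2 fold change 1.58 ± 0.34, limma adjusted p = 0.00221) and 2.39-fold in AAV-V HFD (1.26 ± 0.34, adjusted p = 0.0104). Without AAV-V replicate 1, the AAV-V HFD difference was 0.94 on the log2 scale, under the fold of 2, with an adjusted p of 0.0344. Sod2, the mitochondrial manganese enzyme, was near the limit of detection. Its signals were 2.58, 1.76 and 1.87 in AAV-V, 2.43, 3.46 and 3.35 in AAV-GP73, and 3.33, 3.49 and 3.01 in AAV-V HFD, and it was well above background on 0, 2 and 2 arrays of these groups. No fold is given for Sod2, since the dimmest detected probe of each AAV-V array (3.76, 3.87 and 3.94) was brighter than its mean in either other group.

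Gpx1, the selenium-dependent glutathione peroxidase of the cytosol, and Prdx1, a thioredoxin-dependent peroxidase, were among the brightest members. Gpx1 read 7.42, 6.97 and 6.78 in AAV-V, 9.04, 9.20 and 9.31 in AAV-GP73, and 9.43, 9.0 and 9.0 in AAV-V HFD. The AAV-V arrays lay apart from the other 6, which overlapped each other. Gpx1 rose 4.38-fold in AAV-GP73 (log2 fold change 2.13 ± 0.28, limma adjusted p = 0.000133) and 4.26-fold in AAV-V HFD (2.09 ± 0.28, adjusted p = 0.000357). The log2 difference between AAV-GP73 and AAV-V HFD was 0.04, with a 95% interval from -0.56 to 0.64.

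Prdx1 has 4 probes, and 3 of them were well above background on all 9 arrays. They lie along the gene on the plus strand of chromosome 4 in mm9, the first at chr4:116358214-116360019, the second at chr4:116365578-116366348 and the third at chr4:116372029-116372088, the spans of the first and second being longer than the 60 bases of a probe so that each crosses at least 1 intron. The first 30 bases of each are shown, in the order of the gene from its 5′ end to its 3′ end, because the probes gave opposite directions:
Prdx1 5′ probe: ttcctgcgttctcacggctctttctgtttg
Prdx1 middle probe: agtcttaaaggctgatgaaggtatctcttt
Prdx1 3′ probe: gggcagaccaatcttctatcagtcacagaa

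Over the 9 arrays the 3′ probe was the brightest, and it represents Prdx1 in the counts. In AAV-V alone the 5′ probe was the brightest (group means 7.78 for the 5′, 5.73 for the middle and 6.33 for the 3′ probe). The choice of the 3′ probe therefore drew on the groups in which it is higher. The 3′ probe read 6.75, 5.71 and 6.54 in AAV-V, 8.59, 9.03 and 9.09 in AAV-GP73, and 8.54, 8.89 and 9.03 in AAV-V HFD. By this probe Prdx1 rose 5.94-fold in AAV-GP73 (log2 fold change 2.57 ± 0.32, limma adjusted p = 0.000116) and 5.61-fold in AAV-V HFD (2.49 ± 0.32, adjusted p = 0.00034). The AAV-V arrays were all lower than the other 6. The middle probe rose as well, by 1.70 ± 0.31 on the log2 scale in AAV-GP73 (adjusted p = 0.000801) and by 1.51 ± 0.31 in AAV-V HFD (adjusted p = 0.00256).

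The 5′ probe went the other way. It read 7.79, 7.27 and 8.28 in AAV-V, 6.83, 6.83 and 6.79 in AAV-GP73, and 7.01, 6.79 and 7.30 in AAV-V HFD. The AAV-V arrays were higher than every AAV-GP73 array, and overlapped the AAV-V HFD arrays. Its log2 fold change was -0.96 ± 0.30 in AAV-GP73 (limma adjusted p = 0.016, fold under 2) and -0.75 ± 0.30 in AAV-V HFD (adjusted p = 0.0539), and neither was called. Without AAV-V replicate 2 both were called, at -1.22 and -1.002, whereas scaling by the spike-in controls turned the signs, to 0.72 and 0.59. The difference between probes within an array needs no scaling. The 3′ probe minus the 5′ probe was -1.04, -1.56 and -1.75 on the AAV-V arrays, 1.75, 2.20 and 2.30 on the AAV-GP73 arrays, and 1.53, 2.10 and 1.73 on the AAV-V HFD arrays, on the log2 scale. AAV-V did not overlap the other groups, which overlapped each other, and the ratio of the 3′ to the 5′ probe was 11.6-fold higher in AAV-GP73 and 9.41-fold higher in AAV-V HFD than in AAV-V (two-sided exact permutation p = 0.1 for each, the smallest that 3 against 3 allows). A ratio within an array shows unequal change between the probes, and not which of them changed.

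Other transcripts with several detected probes give the scale of this difference. Among 94 RefSeq transcripts with a pair of probes at least 300 bases apart, both well above background on all 9 arrays, the log2 fold change of the 3′ probe exceeded that of the 5′ probe by a median of 0.26 in AAV-GP73 against 0.30 in AAV-V HFD. The 3′ probe was the higher in 69.1% and 74.5% of them. Between AAV-GP73 and AAV-V HFD the median was -0.03 and the share 42.6%. In these other transcripts too the AAV-V arrays read lower at the 3′ probe, but a difference as large as that of Prdx1 was found for 1 transcript in AAV-GP73, Prdx1 itself, and for 2 in AAV-V HFD, Prdx1 included. RNA quality was not measured in the files, and its part in the Prdx1 result was not tested.

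**Figure D2:**
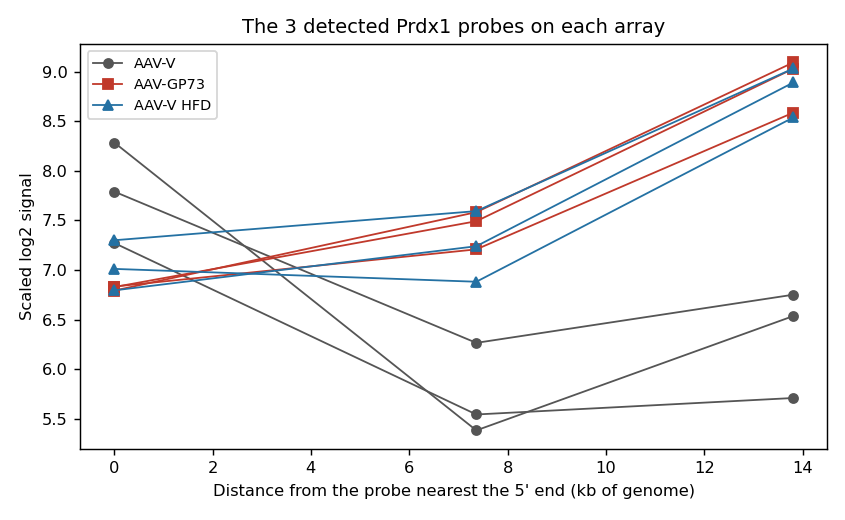
Scaled log2 signal of the 3 detected Prdx1 probes on each of the 9 arrays, against the distance in kilobases of genome from the probe nearest the 5′ end, each line being 1 array. Lines of AAV-V arrays (grey) fall from the 5′ probe to the 3′ probe, whereas those of AAV-GP73 (red) and AAV-V HFD (blue) rise.

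Gclc, Nqo1 and Hmox1 are textbook targets of NRF2. Gclc, the catalytic subunit of the enzyme that limits glutathione synthesis, stayed at background on the AAV-V arrays, where it read 1.48, 1.61 and 1.66. It read 4.33, 4.76 and 5.13 in AAV-GP73 and 4.34, 4.58 and 3.25 in AAV-V HFD, and was detected on all 6 of these arrays. Taking for AAV-V the dimmest signal that counted as detected, Gclc was at least 1.84-fold higher in AAV-GP73 (group means 4.74 and 1.58, limma adjusted p = 8.1e-05) and at least 1.15-fold higher in AAV-V HFD (means 4.06 and 1.58, adjusted p = 0.000483). Here and below, a p-value beside a least fold compares the group means, with AAV-V at background. It does not test the least fold. Under a normexp background correction with an offset of 50 the sign of Gclc turned, to -0.14 and -0.45.

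Hmox1, which breaks down heme, was dim in all groups. Its brighter probe read 3.26, 3.14 and 3.93 in AAV-V, where it was not well above background, 5.07, 4.16 and 3.86 in AAV-GP73, and 3.99, 4.61 and 4.64 in AAV-V HFD. AAV-GP73 overlapped AAV-V, whereas the AAV-V HFD arrays were all higher than the AAV-V arrays by a small margin. Hmox1 was at least 1.42-fold higher in AAV-GP73 (group means 4.36 and 3.44, limma adjusted p = 0.0458) and at least 1.47-fold higher in AAV-V HFD (means 4.41 and 3.44, adjusted p = 0.042), and neither reached the fold of 2. The call depended on single arrays. It was made in AAV-GP73 without AAV-V replicate 3 or without AAV-GP73 replicate 3, at log2 fold changes of 1.17 and 1.18, and in AAV-V HFD without AAV-V replicate 3 or without AAV-V HFD replicate 1, at 1.21 and 1.18. Quantile normalization also called it, at 1.05 and 1.18, and normexp turned its sign in both comparisons, to -0.53 and -0.60.

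Nqo1, a quinone reductase, was detected on none of the arrays. It read 2.06, 1.63 and 1.72 in AAV-V, -0.08, 0.26 and -0.22 in AAV-GP73, and -0.19, 0.09 and 0.59 in AAV-V HFD. These values describe the background of the arrays after scaling and not Nqo1 RNA. The 4 probes of Sod1, Prdx1, Hmox1 and Mt1 that were never detected read between 1.47 and 1.78 on the AAV-V arrays and between -0.46 and 0.71 on the others, the same pattern.

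The metallothionein genes Mt1 and Mt2 lie side by side on chromosome 8, and their probes start 6794 bases apart in mm9 (chr8:96704165-96704224 and chr8:96697371-96697430, both on the plus strand). The 60-base probes share 12 identical positions without gaps and no run longer than 7 bases, and no other probe on the array has the sequence of either. Mt1 read 9.17, 3.47 and 4.23 in AAV-V, 8.98, 7.20 and 8.16 in AAV-GP73, and 5.92, 7.38 and 10.35 in AAV-V HFD. Mt2 read 9.19, 1.58 and 3.20 in AAV-V, 9.28, 6.73 and 7.41 in AAV-GP73, and 4.81, 6.70 and 10.29 in AAV-V HFD. Mt1 was not well above background in AAV-V replicate 2, nor Mt2 in AAV-V replicates 2 and 3. AAV-V replicate 1 was as high as the AAV-GP73 arrays, and AAV-V HFD replicate 3 was the highest of all, so all groups overlapped. Over the 9 arrays the signals of both genes had a Pearson r of 0.99, and their deviations from the group means had the same r of 0.99. The arrays are the same for both genes and AAV-V replicate 1 weighs heavily in each.

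Neither gene was called. The log2 fold change of Mt1 was 2.49 ± 1.34 in AAV-GP73 (limma adjusted p = 0.122) and 2.26 ± 1.34 in AAV-V HFD (adjusted p = 0.169). For Mt2 it was 3.15 ± 1.71 (adjusted p = 0.126) and 2.61 ± 1.71 (adjusted p = 0.213). The 95% intervals were wide, from -0.42 to 5.41 for Mt1 and from -0.58 to 6.88 for Mt2 in AAV-GP73, so that these arrays leave a large rise or no change possible. The calls depended on AAV-V replicate 1 and on the scaling. Without that array Mt1, then detected on 1 of 2 AAV-V arrays, was higher by 4.26 on the log2 scale in AAV-GP73 and by 4.04 in AAV-V HFD (limma adjusted p = 0.00452 and 0.00799). Mt2 was then detected on no AAV-V array, and was at least 14.9-fold and at least 10.3-fold higher (adjusted p = 0.0047 and 0.0104). With all arrays kept, scaling by the 75th percentile of all non-control probes called both genes in AAV-GP73, at 3.49 for Mt1 and 4.14 for Mt2 (adjusted p = 0.0182 and 0.0261), and so did scaling by the spike-in controls, at 4.18 and 4.83 (adjusted p = 0.0112 and 0.0184). Nothing in the labels sets that array apart. Cat, Sod1, Gpx1, Prdx1 and Gclc were lower on it than on all AAV-GP73 and AAV-V HFD arrays. These genes were called with that array in its group, so they do not check its identity, which was not tested.

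**Figure D3:**
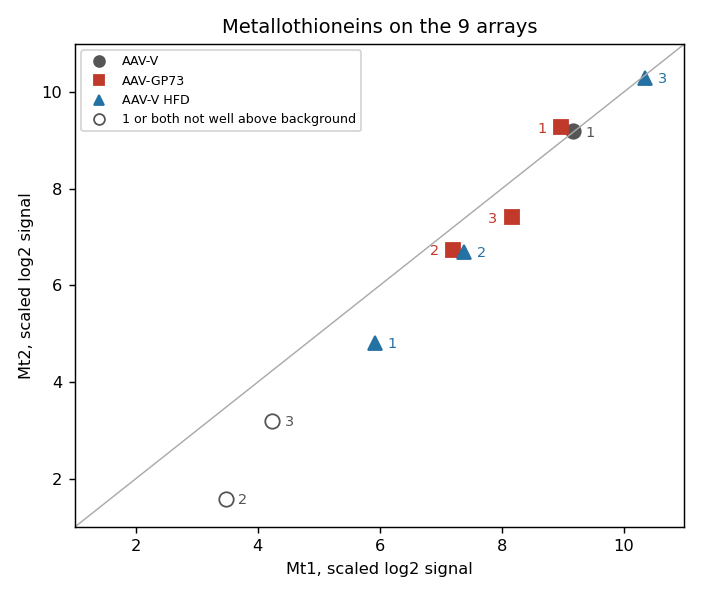
Scaled log2 signal of Mt2 against Mt1 on the 9 arrays, labelled by replicate number, with the line of equal values in grey. AAV-V replicate 1 lies among the AAV-GP73 and AAV-V HFD arrays, and open circles are the AAV-V arrays on which at least 1 of the genes was not well above background.

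Acute phase proteins, which the liver makes in inflammation, were looked at beside the metallothioneins. The log2 summed signal of 19 acute phase genes was 12.32, 11.01 and 11.45 on the AAV-V arrays, 14.17, 12.32 and 12.07 on the AAV-GP73 arrays, and 11.02, 12.79 and 13.26 on the AAV-V HFD arrays. In each group its highest array was the one with the highest Mt1 and Mt2 signals, and in AAV-V and AAV-V HFD all 3 arrays had the same order, which AAV-GP73 replicates 2 and 3 did not. Across groups the order did not hold either, since AAV-V HFD replicate 2 had a higher acute phase sum than AAV-V replicate 1 and lower Mt1 and Mt2 signals. Saa1, serum amyloid A, named after its values were seen, read 7.45, 3.42 and 4.03 in AAV-V, 10.80, 4.03 and 5.21 in AAV-GP73, and 5.55, 6.34 and 8.43 in AAV-V HFD. The log2 summed signal of 14 glucocorticoid-responsive genes was 7.90, 7.44 and 7.90 in AAV-V, 9.89, 10.07 and 9.76 in AAV-GP73, and 8.06, 8.62 and 9.81 in AAV-V HFD. It was not raised in AAV-V replicate 1. The log2 summed signal of 10 neutrophil markers, of which 1 to 5 were detected per array, was 7.48, 6.49 and 6.74 in AAV-V, 7.59, 6.06 and 6.17 in AAV-GP73, and 5.97, 6.11 and 6.71 in AAV-V HFD. Within each group it had the order of the Mt1 and Mt2 signals. The part of these genes and cells in the metallothionein signals was not tested.

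Among the 2665 probes detected on all arrays, the 5 gene names whose signal over the 9 arrays was most like Mt1 were Npm1 (r = 0.90), Wdr92 (0.90), Hspa5 (0.90), Pzp (0.89) and an unnamed transcript (0.88). By deviations from the group means they were Pus7 (0.95), Zc3h13 (0.95), a transcript without a gene name (0.93), Wdr92 (0.93) and Wfdc21 (0.93). These r values describe 9 shared arrays, were the highest of many, and carry no test. Of Cat, Sod1, Gpx1 and Prdx1, the r with Mt1 over the 9 arrays was lowest for Sod1 (0.16) and highest for Prdx1 (0.63), and by deviations from the group means it was -0.76 and 0.61.

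The 250 bases before the RefSeq start of both metallothionein genes are printed because the metal sensor MTF1 binds a short motif, the metal response element, in such promoters. Capitals mark TGCACNC and TGCGCNC on either strand. The windows are chr8:94178839-94179088 for Mt1 and chr8:94172368-94172617 for Mt2, both on the plus strand of GRCm38.p6, a build other than that of the probes:
Mt1: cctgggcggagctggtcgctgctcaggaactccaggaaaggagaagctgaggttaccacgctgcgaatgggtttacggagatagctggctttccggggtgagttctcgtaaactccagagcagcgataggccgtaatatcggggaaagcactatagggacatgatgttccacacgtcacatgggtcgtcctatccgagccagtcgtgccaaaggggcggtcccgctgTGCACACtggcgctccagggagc
Mt2: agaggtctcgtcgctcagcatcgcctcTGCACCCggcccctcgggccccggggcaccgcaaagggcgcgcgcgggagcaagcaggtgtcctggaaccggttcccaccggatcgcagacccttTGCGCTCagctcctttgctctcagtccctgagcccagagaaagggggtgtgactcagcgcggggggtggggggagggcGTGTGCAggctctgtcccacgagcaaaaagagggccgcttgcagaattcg

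The Mt1 window holds 1 match and the Mt2 window 3. At least 1 match is found in 21.4% and at least 3 in 1.26% of the 32851 RefSeq promoter windows of this length. With the 50 bases after the start included, Mt1 holds 3 matches and Mt2 4, where 1.97% of all windows hold at least 3 and 0.517% at least 4. RefSeq windows were matched for 8 of the 10 genes, and none of the other 6 (Cat, Sod1, Sod2, Gpx1, Prdx1 and Nqo1) holds a metal response element in its 250 bases. The antioxidant response element through which NRF2 acts, searched as TGACNNNGC on either strand, has 1 match each in the windows of Sod1, Prdx1 and Mt2 and none in those of Cat, Sod2, Gpx1, Nqo1 and Mt1, where 10.2% of all windows hold at least 1. A match describes letters and not binding.

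**Figure D4:**
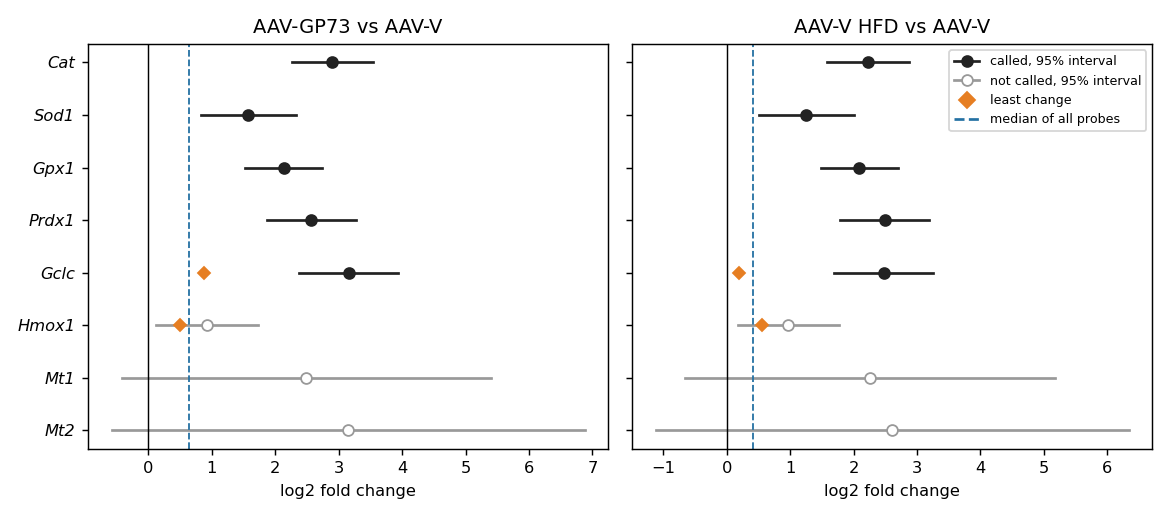
Log2 fold changes of the 8 members tested in AAV-GP73 (left) and AAV-V HFD (right) against AAV-V, with 95% intervals of limma (3 arrays per group). Filled circles were called, diamonds are the least change for genes not detected in AAV-V, and the dashed line is the median of all probes tested (0.64 and 0.41). The intervals of Mt1 and Mt2 include 0 in both comparisons.

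The members well above background on all arrays were Cat, Sod1, Gpx1 and Prdx1, the last by its 3′ probe. Their median log2 fold change was 2.35 in AAV-GP73 against 2.16 in AAV-V HFD. It was -0.11 and -0.26 for all such probes, and 1.04 and 1.01 for the 11 housekeeping genes among them. Related genes were counted in the same way from lists of pathway members. A gene tested because it was detected in AAV-GP73 or AAV-V HFD alone had to be brighter there, so the genes detected on all 9 arrays are counted apart. Of the 13 other superoxide and peroxide enzymes, 6 were tested, of which 4 rose in AAV-GP73 against 5 in AAV-V HFD, and the 3 detected on all arrays rose in both. The shares of all probes called higher were 33.9% and 25.1%, and of those detected on all arrays 16.1% and 11.9%. Prdx6, the peroxiredoxin that uses glutathione, rose by 2.19 ± 0.29 on the log2 scale in AAV-GP73 and by 2.16 ± 0.29 in AAV-V HFD (limma adjusted p = 0.000146 and 0.000361). Prdx2, a cytosolic peroxiredoxin not detected in AAV-V, was at least 2.70-fold and at least 2.22-fold higher (adjusted p = 0.000103 and 0.000397).

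In the thioredoxin and glutaredoxin system, which reduces peroxiredoxins, 7 of 10 genes tested rose in AAV-GP73 against 5 in AAV-V HFD, and none fell. Of the 4 detected on all arrays, 1 rose in each comparison. Among all probes, 33.9% and 25.1% were called higher, and among those detected on all arrays 16.1% and 11.9%. Txnrd1, the cytosolic thioredoxin reductase, was at least 1.66-fold and at least 1.31-fold higher (limma adjusted p = 0.000174 and 0.000784). Txnip, the thioredoxin inhibitor, was in AAV-GP73 at least 2.14-fold higher (adjusted p = 0.000454). In AAV-V HFD, where 2 arrays detected it, it was not called (adjusted p = 0.0822), but it was called by the 75th percentile of all probes, quantile normalization, spike-in controls, the authors' table and without AAV-V replicate 1, at log2 fold changes of 1.20 to 2.26.

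Of 6 genes tested in glutathione synthesis and recycling besides Gclc, 5 rose in AAV-GP73 against 3 in AAV-V HFD, and Cbs was the 1 gene detected on all arrays. The shares of all probes called higher were 33.9% and 25.1%. Cbs, which leads homocysteine towards cysteine, rose by 2.70 ± 0.40 and 1.81 ± 0.40 on the log2 scale (limma adjusted p = 0.000246 and 0.00372). Gsr, glutathione reductase, was at least 2.08-fold and at least 1.89-fold higher (adjusted p = 0.00286 and 0.0061).

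NRF2 itself could not be compared. Nfe2l2, which encodes it, was well above background on 2 AAV-GP73 arrays and on no other, and Keap1, its inhibitor, likewise. Cul3, Mafk and Bach1 were detected on no array and Maff on 1. Sqstm1, an adaptor that binds KEAP1, rose by 3.23 ± 0.31 on the log2 scale in AAV-GP73 and by 2.29 ± 0.31 in AAV-V HFD (limma adjusted p = 3.5e-05 and 0.00037), with 1 AAV-V array above background. Under normexp it was not called, at 0.92 and 0.24. Mafg, a partner of NRF2, was detected on none of the AAV-V and all of the other arrays, too dim for a bound (group means 1.69, 3.77 and 3.26). Of 17 other NRF2 target genes tested, 12 rose and 1 fell in AAV-GP73, where 33.9% of all probes were called higher and 17.9% lower, and 6 rose and 1 fell with HFD, where these shares were 25.1% and 16.9%. Of the 12, 7 were detected on no AAV-V array, and 2 of these were too dim for a bound. Of the 6 genes detected on all arrays, 3 rose and 1 fell in AAV-GP73, and 2 rose and 1 fell with HFD. Of the 2667 probes detected on all arrays, 16.1% were called higher in AAV-GP73 and 11.9% with HFD, and 822 and 771 were called lower. Ugdh, which makes UDP-glucuronic acid, was at least 2.95-fold and at least 1.84-fold higher (adjusted p = 0.000624 and 0.00481). Gsta4, a glutathione transferase, fell by 2.33 ± 0.45 and by 2.66 ± 0.45 on the log2 scale (adjusted p = 0.00108 and 0.000964), and was not called in AAV-GP73 with spike-in controls (-0.65, adjusted p = 0.19).

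Of 10 other zinc and copper genes tested, 3 were called higher and 2 lower in each comparison with AAV-V. These shares were near those of all probes, 33.9% higher and 17.9% lower in AAV-GP73, and 25.1% and 16.9% in AAV-V HFD. One of those called higher was too dim in AAV-V for a bound. Of the 4 detected on all arrays, 1 was called higher and 2 lower. Ccs, the chaperone that loads copper into SOD1, was at least 4.47-fold higher in AAV-GP73 and at least 2.98-fold higher in AAV-V HFD (limma adjusted p = 0.000111 and 0.000749). Atp7b, the copper pump that excretes copper into bile, fell by 2.48 ± 0.34 and by 2.41 ± 0.34 on the log2 scale (adjusted p = 0.000165 and 0.000412), and was not called in AAV-GP73 with spike-in controls (-0.80). Mtf1, the metal sensor, was detected on no AAV-V array and was too dim elsewhere for a bound (group means 2.77, 3.23 and 2.39). In heme and iron handling, the pathway of Hmox1, 10 of 19 genes tested rose and 1 fell in each comparison, and of the 6 detected on all arrays 1 rose and 1 fell. Among all probes, 33.9% and 25.1% were called higher, and among those detected on all arrays 16.1% and 11.9%. Alas1, the first enzyme of heme synthesis, rose by 2.77 ± 0.43 and 3.32 ± 0.43 (adjusted p = 0.00029 and 0.000331), whereas Ppox, a later enzyme of that pathway, fell by 2.86 ± 0.33 and by 2.38 ± 0.33 (adjusted p = 8.4e-05 and 0.000397).

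Most oxidases tested that make hydrogen peroxide or superoxide were higher too. Of 10 such oxidases, 8 rose and 1 fell in AAV-GP73, whereas 6 rose and 1 fell with HFD. Of those that rose, 4 and 3 were detected on no AAV-V array, and Nox4 was too dim for a bound in AAV-GP73. Across all probes tested, 33.9% and 25.1% were called higher, and across those detected on all arrays 16.1% and 11.9%. Called lower were 17.9% and 16.9% of all probes. Whether Cat removes the product of these oxidases was not tested. Of the 4 detected on all arrays, 3 rose and 1 fell in AAV-GP73, and 2 rose and 1 fell in AAV-V HFD. Maob, a monoamine oxidase of mitochondria, was at least 1.75-fold and at least 1.54-fold higher (limma adjusted p = 5.8e-05 and 0.000198). For comparison, 9 of 15 housekeeping genes tested were called higher in each comparison, with a median log2 fold change of 1.05 and 1.03. In AAV-GP73 1 was called lower, and in AAV-V HFD 2. Of the 11 detected on all arrays, 6 were called higher in each comparison, with medians of 1.04 and 1.01, and 1 and 2 lower.

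Transcripts of other cell types were looked at beside these values. The 12 erythroid markers, of which 4 were detected on no array and whose cells are rich in Cat, Sod1 and Prdx2, had a log2 summed signal of 9.67 to 10.53 in AAV-V, 11.91 to 14.06 in AAV-GP73 and 9.82 to 10.55 in AAV-V HFD. Of 5 tested, 3 were called higher in AAV-GP73, Hba-a1 and Hba-a2 among them, against 0 in AAV-V HFD. Hemgn went the other way and was not called (group means 9.23, 8.72 and 8.40). In AAV-V it was brighter than Hba-a1 and Hba-a2 (7.92 and 7.89), so it weighed more than either in that sum. The summed signal of 15 macrophage and Kupffer cell markers was 9.13 to 9.24 in AAV-V, 8.95 to 9.23 in AAV-GP73 and 8.80 to 9.11 in AAV-V HFD, with 1 of 7 called higher in AAV-GP73 against 0 in AAV-V HFD. Clec4f, the defining Kupffer cell marker, read 2.97, 3.15 and 2.47 in AAV-V, 4.34, 4.00 and 3.26 in AAV-GP73, and 3.09, 3.53 and 3.55 in AAV-V HFD, so that AAV-V HFD overlapped AAV-V. It was well above background on the latter 6 arrays, where dimmer signals counted as such. The summed signal of 12 lymphocyte markers was 10.83 to 11.79 in AAV-V, 8.77 to 9.70 in AAV-GP73 and 9.77 to 10.51 in AAV-V HFD, with 1 of 2 tested called lower in each comparison. Of these 12, 8 were detected on no array. The 1 called lower was Cd4, the brightest (group means 11.26, 8.88 and 9.92), whereas Ms4a1 was not called (6.02, 5.57 and 5.79). The summed signal of 11 stellate cell and fibroblast markers, of which 4 were detected on no array, was 8.15 to 8.45, 7.68 to 7.91 and 7.08 to 7.60. Of the 4 tested, 2 fell and 1 rose in AAV-GP73, while 3 fell with HFD. Both sums lay apart between AAV-V and the other groups. Of the neutrophil markers 1 of 4 tested was called lower in each comparison. Of the endothelial markers 1 was tested, called higher in AAV-GP73, and of the cholangiocyte markers none. Beside these counts, the shares over all probes were 33.9% higher and 17.9% lower for AAV-GP73, against 25.1% and 16.9% for AAV-V HFD. No list had more than 7 genes tested, and its count was not tested against these shares. The part of other cell types in the members' values was not tested.

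The size of the changes depended on the scaling, and for the 5 called genes their direction did so only for Gclc under normexp. Over 23 other settings, the log2 fold change in AAV-GP73 ranged from 1.11 to 4.59 for Cat, from 1.26 to 3.26 for Sod1, from 1.76 to 3.81 for Gpx1 and from 1.76 to 4.25 for the 3′ probe of Prdx1, and all 4 were called under each. In AAV-V HFD the log2 fold change of Cat was 0.59 under normexp and not called. Scaling by the 75th percentile of all non-control probes called 8 of 8 members in AAV-GP73, Hmox1, Mt1 and Mt2 included, with a median log2 fold change of all probes of 1.63, and scaling by the spike-in controls called the same 8, with a median of 2.32. In AAV-V HFD both scalings called 7, Mt2 being left out. Under normexp, the direction of Prdx2, Txnip, Txnrd1, Gsr, Mafg and Maob turned in both comparisons and that of Ugdh and Ccs in AAV-V HFD, all of them genes below background in AAV-V.

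**Figure D5:**
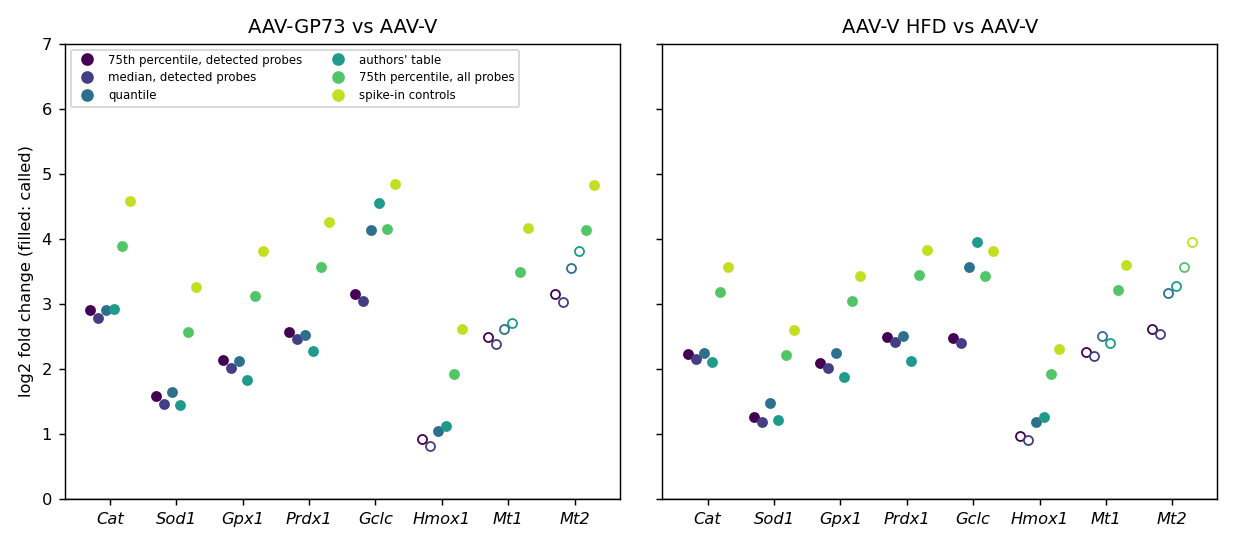
Log2 fold change of the 8 members tested in AAV-GP73 (left) and AAV-V HFD (right) against AAV-V under 6 scalings of the arrays, filled where the gene was called. All 8 genes shift up together when arrays are scaled by all probes or by spike-in controls, and among these 6 scalings Hmox1, Mt1 and Mt2 are the genes whose call changes.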

How the data were processed

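Liver RNA of 3 groups with 3 samples each was hybridised to single-colour arrays. The deposited intensity values are processed signals of Feature Extraction 12.0.3.1 per the file headers (the submitters' processing notes name 10.7, and limma), corrected for background and trends within each array but not scaled between arrays. The deposited log2 table of the authors, whose normalization is not given in the sources used here, served as an alternative. Signals were log2-transformed, spots with an outlier flag left out and spots of a probe averaged. Arrays were scaled as described above, since under 20% of spots were well above background. Probes were tested with limma 3.58.1 in R 4.3.3 (lmFit and eBayes, 3 groups together) and p-values adjusted over all 6593 probes. A gene was represented by the probe with the highest mean signal over the 9 arrays. Scripts were tested on simulated data. The number of arrays limits the precision.

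Members, gene lists and named genes (every member, the genes with the largest change in each pathway list, all NRF2 regulators, Mtf1, and the 5 genes most like Mt1) were chosen with earlier results of these data known. Alternatives were other scalings, background correction, filters, models and leaving out each array. Replicate numbers were not treated as pairs, since same-numbered arrays deviated together with correlations of -0.17 to 0.39, and only 2 of 9 were over 0.1. Probe positions are mm9 as deposited, and promoters are from RefSeq (GRCm38.p6). A gene that the rule for named genes picked is not reported here.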

Additional observations from a re-analysis of the deposited data

Results flagged for a closer look

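Among the genes named, the hemoglobin genes Hba-a1 and Hba-a2 differed between the AAV-GP73 and the AAV-V HFD effect, both measured against AAV-V. The log2 difference was 3.18 for Hba-a1 (limma adjusted p = 0.0119) and 3.17 for Hba-a2 (adjusted p = 0.0108). Hba-a1 read 7.54, 7.38 and 8.83 in AAV-V, 13.03, 10.68 and 11.60 in AAV-GP73, and 8.16, 8.53 and 9.08 in AAV-V HFD, so that all 3 AAV-GP73 arrays were above the other 6. The probes of these near-identical genes cannot be taken as separate measurements. Neither difference passed with Student's t-test and adjustment (adjusted p = 0.226 and 0.224) or without AAV-GP73 replicate 3 (limma adjusted p = 0.0533 for both).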

How the results depend on the processing

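Of 23 alternatives, none changed the direction or the call of Cat, Sod1, Gpx1 or the 3′ probe of Prdx1 in AAV-GP73. In AAV-V HFD, Cat was not called under normexp (log2 fold change 0.59), nor Sod1 under Student's t-test with adjustment or without AAV-V replicate 1. Student's t-test with adjustment also lost the calls of Gsr in both comparisons and of Cbs and Ugdh in AAV-V HFD, normexp those of Cbs and Sqstm1 in both and of Alas1 in AAV-GP73, and spike-in controls those of Gsta4 and Atp7b in AAV-GP73. The number of members called in AAV-GP73 was 8 by the 75th percentile of all probes and by spike-in controls, and in AAV-V HFD 3 under normexp. With the replicate block the calls of members did not change, 5, 5 and 0, and 3413 probes were called in AAV-GP73. Slide as a block could not be fitted, since the AAV-V HFD slide held 1 group.

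The number of probes called in AAV-GP73, 3416, was 5217 with spike-in controls (98.2% higher, against 65.4%), 892 under normexp (17.0%), 47083 without a filter on dim probes (5.01%) and 1251 for probes detected on all arrays (34.3%), and 91.3% were higher by the 75th percentile of all probes. In AAV-V HFD, 2770 became 4514 with spike-in controls, 961 under normexp, 45123 without a filter, 1089 for probes detected on all arrays and 1694 by Student's t-test with adjustment. Between AAV-GP73 and AAV-V HFD, 176 became 378 with spike-in controls, 49 under normexp, 48 by quantile normalization, 27 in the authors' table, 77 without a filter, 71 for probes detected on all arrays, 389 by Student's t-test without and 13 with adjustment, and 38 to 191 when single arrays were left out.

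The direction turned as follows, in log2 fold changes, and the cause was not tested. The 5′ probe of Prdx1 was 0.030 and 0.21 in the 2 comparisons with AAV-V by the 75th percentile of all probes and 0.72 and 0.59 by spike-in controls. Under normexp, in AAV-GP73 and AAV-V HFD, Gclc was -0.14 and -0.45, Hmox1 -0.53 and -0.60, Prdx2 -0.042 and -0.24, Txnip -0.16 and -0.74, Txnrd1 -0.31 and -0.57, Gsr -0.28 and -0.39, Mafg -0.51 and -0.75, and Maob -0.19 and -0.42, Mtf1 was -0.69 in AAV-GP73, and Ugdh -0.33 and Ccs -0.17 in AAV-V HFD. Mtf1 in AAV-V HFD was 0.57 by the 75th percentile of all probes, 0.092 by quantile normalization, 0.95 by spike-in controls and 0.12 in the authors' table, and ranged from -0.80 to 0.19 without single arrays. Between AAV-GP73 and AAV-V HFD, where no member was called, Gpx1 was -0.12 by quantile normalization, -0.00377 by the median and -0.050 in the authors' table, Hmox1 0.30 by spike-in controls and 0.069 under normexp, and the 5′ probe of Prdx1 0.13 by spike-in controls. Without single arrays that difference ranged from -0.032 to 0.18 for Gpx1, -0.058 to 0.24 for Prdx1, -0.40 to 0.21 for Hmox1, -0.75 to 1.46 for Mt1 and -0.69 to 2.05 for Mt2.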
